A study of Homo sapiens with 14 samples.

Results

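The mRNAs described here come from 10 genes of the cellular stress response, most of them known for upstream open reading frames (uORFs), together with XBP1, whose mRNA is cut by the endoribonuclease ERN1 (also called IRE1). The genes were chosen by name, and each is represented by the deposited row, that is the transcript, with the highest mean RPKM (reads per kilobase of transcript, scaled to the size of the library) over the profiles that hold it. Of the 10 genes, 8 had a scored row, with 24 rows among them out of 20512 in the series, and 7 had scores in all 4 profiles: ATF4, ATF5, DDIT3, PPP1R15A, PPP1R15B, XBP1 and HSPA5. DNAJB9 had scores in 1 profile of each reagent, so no difference between conditions could be formed for it. IFRD1 and HERPUD1 were not found among the scored transcripts with an identifier in GENCODE release 44 and are not analysed here. That release held 20111 of the 20512 rows, so a row under another identifier would have been missed.

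All samples were K562 cells, an established human chronic myelogenous leukaemia line, and polyadenylated RNA was sequenced. For icSHAPE, 3 in vivo and 2 in vitro libraries came from a 5 min exposure to NAI-N3 at 100 mM, beside 3 DMSO controls. NAI-N3 acylates the 2′-hydroxyl of flexible nucleotides. The 2 icLASER in vivo and 2 icLASER in vitro libraries were made with NAz-N3 (1 M stock, 10 min of UV light), which marks solvent-accessible C8 positions of purines, beside 2 controls without UV; in vitro RNA was extracted from the cells and refolded. No stress-inducing drug is named in the labels of any sample. From the 14 libraries the authors made 1 pooled profile for each reagent and condition, 4 in all. There is thus no replicate of any score, every difference below is a description without a test, and each SD is taken over nucleotides, which are not replicates.

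In the integrated stress response, several kinases phosphorylate the translation factor eIF2, which lowers general protein synthesis while the main reading frames of a few mRNAs with uORFs are translated more. ATF4 is the textbook case: ribosomes that have translated a short early uORF reinitiate at a later, inhibitory uORF when eIF2 is active, and scan past it to the main start codon when it is not. ATF5, DDIT3, PPP1R15A and PPP1R15B carry uORFs of related function. In the unfolded protein response of the endoplasmic reticulum (ER), ERN1 cuts the XBP1 mRNA within the loops of twin hairpins and removes a short intron in the cytoplasm, which shifts the reading frame toward the active transcription factor. HSPA5, HERPUD1 and DNAJB9 encode ER proteins induced by this response.

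The sequences on which the results turn are the XBP1 hairpins and the start sites of the uORFs, all given 5′ to 3′ from GENCODE release 44 on GRCh38. In both XBP1 hairpins, which lie in the coding sequence on the minus strand at chr22:28796143-28796161 and chr22:28796116-28796136, the capitals mark the 7 nt loop. The 5′ loop is closed by a stem of 6 pairs and the 3′ loop by a stem of 7 pairs.

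XBP1 5′ hairpin: cugaguCCGCAGCacucag
XBP1 3′ hairpin: ugcaccuCUGCAGCaggugca

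Of the uORFs, 3 are short enough to be shown whole, with 6 nt before the start codon. The capitals mark the start and stop codons. They lie in 5′ UTRs on the plus strand at chr22:39520580-39520591, chr22:39520642-39520659 and chr19:49929268-49929285.

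ATF4 AUG-stop element: ccacagAUGUAG
ATF4 3-codon uORF: gccaccAUGgcguauUAG
ATF5 3-codon uORF: ccggccAUGgcucugUAG

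The remaining uORFs are shown by their start codon, in capitals, with 6 nt before and 1 nt after it. They are followed by the main start codon of ATF4 for comparison.

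ATF4 59-codon uORF: uaagccAUGg
ATF5 59-codon uORF: gcagccAUGg
DDIT3 34-codon uORF: cguaucAUGu
DDIT3 73-codon uORF: aagcagAUGu
PPP1R15A 22-codon uORF: gaucuuAUGc
PPP1R15A 26-codon uORF: ggugagAUGa
PPP1R15B 8-codon uORF: cuauccAUGg
PPP1R15B 51-codon uORF: gccaggAUGg
ATF4 main start: cgcaacAUGa

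A strong context, meaning a purine 3 nt before the start codon and a G directly after it, was present at 5 of the 11 uORFs: the ATF4 3-codon and 59-codon uORFs, both ATF5 uORFs and the PPP1R15B 51-codon uORF. It was present at 3 of the 7 main start codons. Of the 11 uORFs, 3 run past the main start codon in another frame: the 59-codon uORFs of ATF4 and ATF5 and the 73-codon uORF of DDIT3. The AUG nearest to the cap in ATF4 is directly followed by a stop codon.

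HSPA5, encoding the ER chaperone BiP, was the most abundant of the 8 mRNAs. Its RPKM was 81.9 in the icSHAPE in vitro profile, 73.9 in icSHAPE in vivo, 107 in icLASER in vitro and 115 in icLASER in vivo. ATF5, a transcription factor related to ATF4, gave 45.2, 47.9, 101.4 and 121 in the same order, so both icLASER profiles were above both icSHAPE profiles. ATF4, the central transcription factor of the integrated stress response, gave 65.9, 77.8, 68.9 and 82.8, a spread of 1.26 times. The order of the HSPA5, ATF5 and ATF4 levels differs between profiles, and the ranges of their values overlap.

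PPP1R15A (GADD34), the stress-induced subunit that directs protein phosphatase 1 to eIF2, gave an RPKM of 41.0 and 30.8 with icSHAPE in vitro and in vivo, and 54.8 and 71.0 with icLASER. DDIT3 (CHOP), a transcription factor linked to cell death under ER stress, lay lower, at 18.5, 16.9, 18.6 and 23.4. The other rows were near the authors' minimum of 5 RPKM: 9.17, 10.1, 8.87 and 9.23 for XBP1, and 6.50, 5.67, 8.81 and 7.91 for PPP1R15B (CReP), the constitutive counterpart of PPP1R15A. DNAJB9, an ER co-chaperone, had 6.19 in icSHAPE in vitro and 9.23 in icLASER in vivo. Across the 6714 genes with a row, the median of the mean RPKM was 12.3. HSPA5 lay above 91.1% of them, ATF5 above 89.1%, ATF4 above 88.5%, XBP1 above 35.5% and PPP1R15B above 17.9%. In icSHAPE in vitro, the score was 0 at 36.9% of ATF4 positions and at 69.4% of PPP1R15B positions.

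Scores run from 0 to 1 and are relative within a row. In each of the 7 rows and each profile about 5% of positions had a score of exactly 1 (5.01% to 5.06%), so a mean score says how reactivity is spread along one mRNA and not how reactive that mRNA is against another. On the members' own sequences the mean icLASER score in vivo was highest for G (0.305), followed by A (0.15), U (0.123) and C (0.0846). The icSHAPE score in vivo separated the bases best when it was read against the next nucleotide downstream, with a mean of 0.297 if that was A and 0.252 if it was U, but 0.0808 for C and 0.0772 for G. For all of these rows but that of XBP1 the placement on the sequence used these base preferences, so the values by base are in part fixed by it. Residue values below are given where the files place them, which for icSHAPE may be 1 nt upstream of the modified base. With icLASER in vivo, G had 0.305 at the scored nucleotide and 0.146 when read at the next one downstream. For A the order was reversed, with 0.15 and 0.25. An icLASER score at a residue that precedes an A may thus belong to that A.

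Over whole rows, all 7 mRNAs had a higher mean icSHAPE score in vivo than in vitro, against 89.8% of 3696 genes, while after each profile was divided by its own mean, which was 1.18 times higher in vivo, 3 of 7 did, as did 50.6% of genes. The median difference was 0.0247, against 0.0242 over all genes. The smallest belonged to ATF4, with 0.172 ± 0.275 in vitro and 0.178 ± 0.276 in vivo (SD over 1383 nt), and the largest to XBP1, with 0.148 ± 0.278 and 0.201 ± 0.284 over 1814 nt. With icLASER, 6 of 7 were higher in vivo, against 65.0% of 4394 genes, with a median of 0.00624 against 0.00701. ATF5 was highest, at 0.142 ± 0.273 in vitro and 0.184 ± 0.277 in vivo over 2007 nt, above 96.7% of genes. PPP1R15B was the 1 member lower in vivo, at 0.178 ± 0.281 and 0.156 ± 0.282 over 5191 nt. The medians over the members thus lie near those over all genes, while single members lie toward the ends of the range: XBP1 with icSHAPE was above 92.5% of genes and PPP1R15B with icLASER above 8.12%.

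In the 5′ UTR the reagents pointed in opposite directions. The icSHAPE mean was higher in vivo in 6 of 7 members, also after each profile was divided by its own mean, against 64.3% of 485 genes (44.7% after the same division), and the icLASER mean was higher in vivo in 1 of 7, against 25.1% of 589 genes. In PPP1R15A, icSHAPE gave 0.139 ± 0.257 in vitro and 0.244 ± 0.324 in vivo over 263 nt, and icLASER gave 0.159 ± 0.273 and 0.121 ± 0.233 over the same nucleotides. In ATF4 the values were 0.116 and 0.184 with icSHAPE, and 0.157 and 0.124 with icLASER, over 274 nt. The exception for both reagents was XBP1, whose 67 scored nt of 5′ UTR hold no uORF. There icSHAPE gave 0.213 and 0.208, and icLASER 0.334 and 0.374. HSPA5, which has no uORF either, had the same directions as the mRNAs with uORFs, with icSHAPE at 0.250 and 0.297 and icLASER at 0.276 and 0.219 over 198 nt. Both directions were the more common ones among genes in general on the deposited scale. They were read from the main rows. In DDIT3 the icLASER direction depended on the row: the difference was -0.0346 in the main row and -0.0362 in ENST00000547303. It was 0.00409, 0.0138 and 0.0548 in ENST00000551116, ENST00000552740 and ENST00000547526.

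Coding sequences were more even. The icSHAPE mean was higher in vivo in 4 of 7 members, against 84.4% of 614 genes, and in 2 of 7 after each profile was divided by its own mean, against 52.4% of genes. The icLASER mean was higher in vivo in 3 of 7, against 42.1% of 750 genes. The ATF4 coding sequence had an icSHAPE difference of -0.0116, above that of 9.12% of genes. PPP1R15B had the widest gaps in both directions, from 0.160 to 0.243 with icSHAPE and from 0.184 to 0.121 with icLASER over 2142 nt. It was also the member with the lowest RPKM.

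In 3′ UTRs the icSHAPE mean was higher in vivo in 6 of 7 members (5 after division by the profile mean, against 56.0% of genes), against 79.7% of 543 genes, and the icLASER mean in 7 of 7, against 83.5% of 678 genes. The XBP1 3′ UTR had the highest icSHAPE difference, 0.101 ± 0.208 in vitro and 0.205 ± 0.283 in vivo over 961 nt, above 96.9% of genes. PPP1R15B was lower in vivo here, at 0.138 and 0.104 over 2675 nt.

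The same opposite directions were seen in the uORFs. On the deposited scale the icSHAPE mean was lower in vivo in 1 of 11 uORFs, against 28.0% of 343 uORFs in other genes. After each profile was divided by its own mean it was lower in 3 of 11. The share in other genes after this division was not computed. The icLASER mean was lower in vivo in 8 of 11, against 72.1% of 458. The median differences were 0.0736 with icSHAPE and -0.0427 with icLASER, beside 0.0357 and -0.0471 in other genes. uORFs of one mRNA share its row and its scaling, so these 11 stand for 5 mRNAs. Each was also set against all windows of its length in its own row. The icSHAPE differences lay above 31.3% (ATF5 3-codon) to 99.5% (PPP1R15B 8-codon) of windows. Between these were 66.2%, 55.6% and 80.8% in ATF4 and 58.7% and 52.4% in DDIT3. The icLASER differences lay above 0.795% (ATF4 AUG-stop element) to 51.5% (ATF5 59-codon). Of 1071 coding rows of other genes with a sequence of equal length, 35.9% hold a uORF.

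The AUG-stop element of ATF4, 258 nt before the main start codon, was the most reactive of the uORFs. Its 6 nt had an icSHAPE mean of 0.790 in vitro and 0.842 in vivo, and an icLASER mean of 0.712 in vitro and 0.429 in vivo. The icLASER scores of its start codon were 0.35, 0.959 and 1 in vitro and 0.0700, 0.334 and 1 in vivo, so the A and the U, but not the G, were lower in cells. The icLASER difference of -0.283 lay above only 0.795% of windows of 6 nt in the row. The fall was not confined to the element. Upstream of it, from the first scored nucleotide 274 nt before the main start codon on, the icLASER mean was 0.527 in vitro and 0.2015 in vivo. This mean covers only the scored part of the centred window, since the nucleotides before it are unscored. Over the first 30 nt of the row, which hold the element, icLASER gave 0.45 and 0.2285 (24 scored nt). Of the other ATF4 rows, 1 gave much lower levels for the 6 nt of the element, with 0.184 and 0.295 for icSHAPE and 0.452 and 0.196 for icLASER. The second gave 0.838 and 0.926, then 0.945 and 0.435. The icLASER direction was thus the same in all 3 rows, which overlap in sequence and are not independent.

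The 3-codon uORF of ATF4, the element after which ribosomes reinitiate, had close means in both conditions in the main row. Over its 12 nt icSHAPE gave 0.313 ± 0.436 in vitro and 0.341 ± 0.425 in vivo, and icLASER 0.310 ± 0.343 and 0.283 ± 0.386. In the other ATF4 rows icSHAPE gave 0.297 and 0.419 (ENST00000404241) and 0.344 and 0.360 (ENST00000337304), so the size of the difference depends on the row. Its start codon was unreactive to NAI-N3, with scores of 0.0370, 0 and 0 in vitro and 0.0760, 0.0410 and 0.0280 in vivo. The higher scores of the element lie after its start codon.

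The 59-codon uORF of ATF4, which overlaps the main reading frame and blocks it when eIF2 is active, was read with all its 180 nt. Its icSHAPE mean was 0.0993 ± 0.195 in vitro and 0.178 ± 0.268 in vivo, higher in vivo at 113 nt and lower at 32 nt. Its icLASER mean was 0.144 ± 0.242 and 0.0982 ± 0.191, higher at 49 nt and lower at 93 nt. In the row ENST00000404241 these 180 nt gave 0.126 and 0.215 with icSHAPE, and 0.119 and 0.109 with icLASER. The size of the icLASER difference thus depends on the row. The values that follow are from the main row. In the 97 nt before the main start codon, icSHAPE was 0.0836 in vitro and 0.219 in vivo, whereas in the 83 nt beyond it the values were 0.118 and 0.131. With icLASER the first stretch gave 0.0990 and 0.0712 and the second 0.197 and 0.130. Within the 5′ UTR of ATF4, nucleotides in uORFs had an icSHAPE difference of 0.120 over 115 nt and those outside one of 0.0294 over 159 nt.

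The icSHAPE score at the G of the ATF4 main start codon was 0.0680 in vitro and 0.710 in vivo, while the A and U stayed below 0.1 in both. The icLASER score of that G was 0.771 and 0.752. Over the codon with 30 nt on each side, icSHAPE gave 0.0677 and 0.173. The G of the XBP1 main start codon had a similar gap, 0.217 in vitro and 0.880 in vivo. That of ATF5 was at 1 in both conditions, and those of HSPA5 (0.452 and 0.298) and DDIT3 (0.178 and 0.0170) were lower in vivo.

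**Figure D1:**
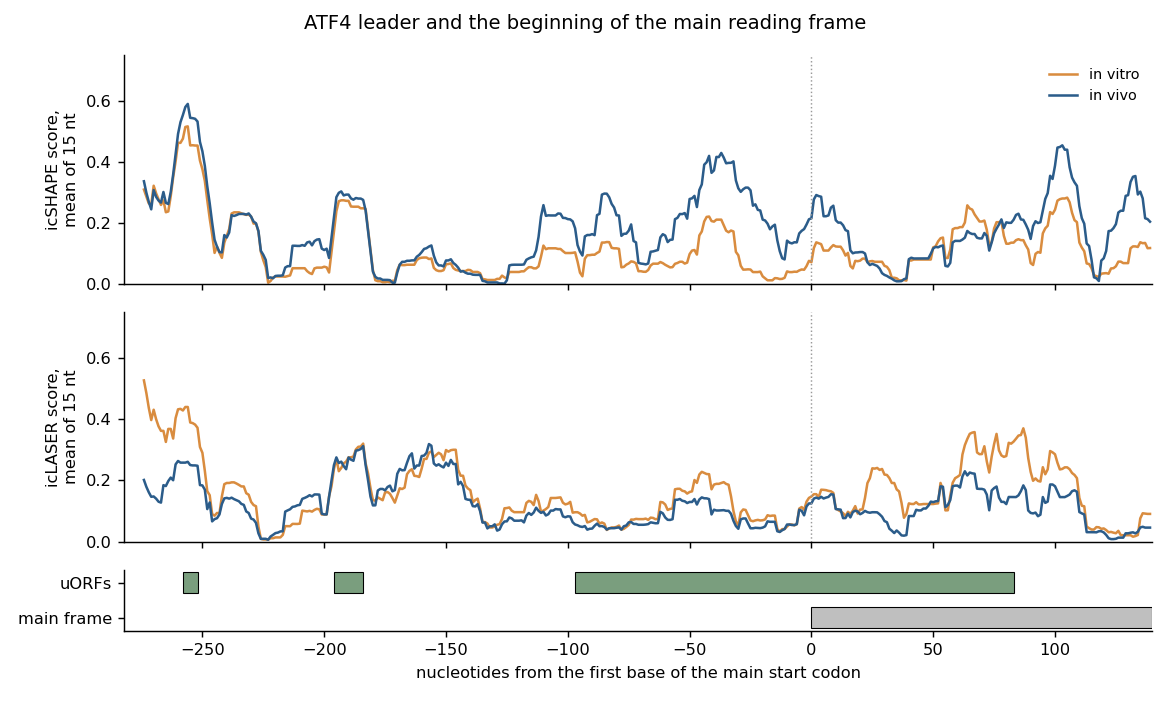
Score along the ATF4 leader as a centred mean of 15 nt (vertical axis), against the distance in nucleotides from the first base of the main start codon, with icSHAPE above, icLASER in the middle, and the 3 uORFs and the beginning of the main frame (cut off at the edge) drawn to scale. The icSHAPE lines separate in the 97 nt before the main start codon (mean 0.0836 in vitro and 0.219 in vivo). They also separate at places beyond it, such as 129 nt after it (0.0687 and 0.288). The icLASER lines separate at the AUG-stop element and also elsewhere. Examples are 274 nt before the main start codon (0.527 and 0.2015) and 87 nt after it (0.370 and 0.184). At the left edge the mean covers only the scored part of the window.

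ATF5 has a uORF pair of the same lengths as ATF4, 3 and 59 codons. The shorter one, 246 nt before the main start codon, was the 1 uORF with a lower icSHAPE mean in vivo, 0.101 ± 0.143 in vitro and 0.0883 ± 0.112 in vivo over 12 nt. With icLASER it gave 0.127 and 0.132. Its start codon had icLASER scores of 0.260, 0 and 0.264 in vitro and 0.0190, 0 and 0.00700 in vivo. The 59-codon uORF gave 0.0679 ± 0.156 and 0.116 ± 0.199 with icSHAPE, and 0.0983 ± 0.220 and 0.0994 ± 0.178 with icLASER. As in ATF4, the icSHAPE difference of this uORF was larger before the main start codon (0.0575 over 124 nt) than beyond it (0.0272 over 56 nt). The ATF5 uORFs had the lowest icSHAPE means of the set in vivo. In 3 further ATF5 rows the icSHAPE difference of the 3-codon uORF was -0.170, 0.0563 and -0.0719, so its sign depends on the row.

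DDIT3 carries a 34-codon uORF that holds back its main frame in unstressed cells. Its icSHAPE mean was 0.185 ± 0.305 in vitro and 0.265 ± 0.318 in vivo over 105 nt, and its icLASER mean 0.272 ± 0.345 and 0.229 ± 0.271. At its start codon the icLASER scores in vitro and in vivo were 0.109 and 0.0330 for the A, 0.577 and 0.496 for the U, and 1 in both for the G. The 73-codon uORF gave 0.10 ± 0.208 and 0.158 ± 0.251 with icSHAPE over 222 nt, and 0.133 ± 0.253 and 0.101 ± 0.197 with icLASER. Unlike in the 59-codon uORFs of ATF4 and ATF5, its icSHAPE difference was smaller before the main start codon (0.00613 over 32 nt) than beyond it (0.0659 over 190 nt). Its start codon, 32 nt before the main start, had no score above 0.0360 in any profile. In 3 further DDIT3 rows the icLASER difference of the 34-codon uORF was positive, from 0.0481 to 0.0788, and in another it was -0.0423, so that its direction depends on the row. The icSHAPE difference of this uORF was 0.0795 in the main row. In the further rows it was smaller, at 0.0277, 0.0317, 0.0179 and -0.00709.

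The 3 largest icSHAPE differences were in the PPP1R15B 8-codon, PPP1R15A 26-codon and PPP1R15B 51-codon uORFs. In the 26-codon uORF of PPP1R15A, which is known to be needed for its control by stress, icSHAPE gave 0.119 ± 0.213 in vitro and 0.255 ± 0.328 in vivo over 81 nt, above 89.5% of windows of that length. It was higher in vivo at 55 nt and lower at 14 nt. The G of its start codon had 0.471 and 0.980 with icSHAPE and 0.720 and 0.486 with icLASER. Over the whole uORF the icLASER mean was 0.143 in vitro and 0.144 in vivo. The 22-codon uORF upstream gave 0.136 and 0.210 with icSHAPE, and 0.168 and 0.110 with icLASER. In the PPP1R15A leader the icSHAPE difference was 0.107 inside uORFs and 0.10 outside them.

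In PPP1R15B the 8-codon uORF gave 0.0984 ± 0.227 and 0.367 ± 0.425 with icSHAPE over 27 nt, above 99.5% of windows, and 0.270 and 0.198 with icLASER. The 51-codon uORF gave 0.125 ± 0.275 and 0.245 ± 0.335 with icSHAPE over 156 nt, and 0.235 and 0.161 with icLASER. In the 5′ UTR of PPP1R15B 44.1% of positions had the same icSHAPE score in both conditions.

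The twin hairpins of XBP1 were scored at all 40 nt in all profiles of the most abundant row. With icSHAPE in vivo the loops of this row had higher means than the stems. The 5′ loop had a mean of 0.382 ± 0.303 over 7 nt and its stem 0.0226 ± 0.0428 over 12 nt, and the 3′ loop had 0.181 ± 0.153 and its stem 0.0419 ± 0.0785 over 14 nt. In vitro the 5′ loop had 0.0247 ± 0.0654 and its stem 0.0191 ± 0.0661, while the 3′ loop had 0.117 ± 0.309, all of it from 1 nucleotide, and its stem was at 0. The mean difference over both hairpins was 0.0895.

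By residue, the highest icSHAPE scores in vivo were 0.80 at the last base of the 5′ loop and 0.753 at its second, both at 0 in vitro. The G after which ERN1 cuts, the third base of each loop, had 0.173 in vitro and 0.460 in vivo in the 5′ loop, but 0.818 and 0.222 in the 3′ loop, where the fifth base had 0 and 0.397.

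With icLASER the hairpins were low in both conditions, with a mean difference of -0.0126. The 5′ hairpin gave 0.105 ± 0.194 and 0.0859 ± 0.140 over 19 nt, and the 3′ hairpin 0.0344 ± 0.0763 and 0.0276 ± 0.0621 over 21 nt. The highest icLASER scores of the 5′ hairpin lay outside the loop, at G562 (0.692 in vitro and 0.519 in vivo) and G576 (0.496 and 0.227), counting from the first base of the row. At the G before the cut, icLASER gave 0.305 in vitro and 0 in vivo in the 5′ loop, and 0.337 and 0.275 in the 3′ loop.

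In all, 4 XBP1 rows hold the uncut hairpins, and they overlap in sequence but were scaled separately. The icLASER score at the G before the cut was lower in vivo than in vitro in each of them and in both loops: beside the values above, 0.313 and 0.214, 0.379 and 0.253, and 0.314 and 0.114 in the 5′ loop, and 0.593 and 0.0780, 0.730 and 0.227, and 1 and 0.248 in the 3′ loop. In the main row G560, G562, G576, G584, G595, G599 and G601 of the hairpins were lower in vivo too. G569 rose from 0 to 0.0920 and G598 from 0.0510 to 0.0750. A lower icLASER score in vivo was thus not particular to the G before the cut. The icLASER mean of the coding sequence was 0.226 in vitro and 0.179 in vivo in the main row. It was 0.224 and 0.194 in ENST00000403532, and 0.192 and 0.193 in ENST00000405219. The icSHAPE difference over both hairpins did not hold its size across rows. It was 0.0895, 0.0400 and 0.00305 in the 3 rows that both icSHAPE profiles hold, with an opposite sign in some loops. In the second row (ENST00000403532) both loops were higher in vivo, at 0.0820 and 0.211 for the 5′ loop and 0.030 and 0.166 for the 3′ loop. In the last (ENST00000405219) both were lower in vivo, at 0.233 and 0.162 and at 0.287 and 0.169. In that row both loops stood above their stems in vitro, where the stems had 0.0288 and 0.0147. In vivo the 3′ loop still did, at 0.169 beside 0.0345 in its stem, whereas the 5′ stem had 0.126 beside its loop's 0.162.

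Around the hairpins the icSHAPE mean was 0.0772 in vitro and 0.143 in vivo over the 50 nt upstream, and 0.125 and 0.140 over the 50 nt downstream. The 26 nt between the cuts gave 0.0353 and 0.116 with icSHAPE, which lay above 57.3% of windows of that length in XBP1. The spliced form has a row of its own (ENST00000344347), placed by its scores with a contrast 2.43 times that of the next best offset. It had an RPKM of 8.04 and 8.16 with icSHAPE in vitro and in vivo and 7.64 and 6.69 with icLASER, beside 9.17, 10.1, 8.87 and 9.23 for the main uncut row. Reads outside the intron fit both, so these values do not measure splicing. Over the 20 nt around the spliced junction icSHAPE gave 0.116 and 0.226, and icLASER 0.0910 and 0.190.

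The loop motif CNGCAGC, searched on the sense strand, was found 7 times in ATF4, 3 times in PPP1R15B, 2 times each in ATF5 and XBP1, once each in PPP1R15A and HSPA5, and not in DDIT3. It is present in 33.8% of 4271 rows with a sequence of equal length, 1 per gene. A pair of motifs 26 nt apart was found in 2 of these rows (0.0468%), of which XBP1 is 1. PPP1R15B, placed by its scores and so not among the 4271, holds such a pair too, from position 886, but with stems of 0 and 1 pairs.

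Each mRNA was also divided into bins of 30 nt, and the bins with the largest differences are given as a description, since they were chosen by it. The region of such bins was not computed for other genes, so the counts by region have no share over genes beside them. The lowest icSHAPE difference was in the coding sequence in 5 of 7 members. It was -0.422 in ATF4 (0.558 in vitro and 0.136 in vivo), -0.462 in PPP1R15A (0.612 and 0.15) and -0.408 in HSPA5 (0.569 and 0.161). In XBP1 the same bin was lowest with both reagents, 0.552 and 0.214 with icSHAPE and 0.720 and 0.458 with icLASER, and it begins at nucleotide 198 of the coding sequence, upstream of the hairpins. In PPP1R15A the lowest icLASER bin (0.561 and 0.260) directly precedes the lowest icSHAPE bin. These stretches are shown because they are the coding sequence bins with the lowest differences named above. They are given in lower case, without a marked motif, and lie at chr22:39522467-39522496 (plus strand), chr19:48874195-48874224 and chr19:48874225-48874254 (plus), chr9:125236811-125236840 (minus) and chr22:28800298-28800327 (minus).

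ATF4, icSHAPE: uggugagugcaaagagcuggaaaagaagaa
PPP1R15A, icLASER: agaaggauggagaagcugaguguccucccu
PPP1R15A, icSHAPE: gcauccccccaccaagugccuuccugaagg
HSPA5, icSHAPE: aagaaucagauuggagauaaagaaaagcug
XBP1, both reagents: ccugagccccgaggagaaggcgcugaggag

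A and G made up 80% of the ATF4 bin, 76.7% of the HSPA5 bin and 66.7% of the XBP1 bin, against 52.3%, 53.5% and 50.4% of the whole rows, but 40% of the PPP1R15A icSHAPE bin against 53.6%. The other lowest icSHAPE bins were in the 3′ UTR of ATF5 (0.661 in vitro and 0.224 in vivo) and PPP1R15B (0.403 and 0.0879) and in the coding sequence of DDIT3 (0.569 and 0.388). Among the highest differences, the icSHAPE bin of ATF4 lies in the 59-codon uORF just ahead of the main start codon, at positions 241 to 270 of the row (0.0938 in vitro and 0.297 in vivo). The lowest icLASER bin was the first of the row in ATF4, which holds the AUG-stop element (0.45 and 0.229 over 24 scored nt), and in PPP1R15B (0.490 and 0.142). DDIT3 had its highest icLASER bin in the coding sequence, 0.436 in vitro and 0.747 in vivo, the highest in vivo mean among all these bins.

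The highest icLASER bin lay in the 3′ UTR of the other 6 mRNAs, a region whose icLASER mean was higher in vivo in 83.5% of 678 genes. It gave 0.0437 in vitro and 0.581 in vivo in ATF5, 0.107 and 0.544 in PPP1R15B, 0.0858 and 0.448 in ATF4, 0.137 and 0.459 in PPP1R15A, 0.0198 and 0.333 in HSPA5, and 0.00465 and 0.313 in XBP1. The highest icSHAPE bin was in the 3′ UTR of ATF5 (0.154 and 0.364), XBP1 (0.0986 and 0.322) and HSPA5 (0.0333 and 0.336). It was in the coding sequence of DDIT3 (0.156 and 0.377), PPP1R15A (0.0592 and 0.271) and PPP1R15B (0.0424 and 0.314). The lowest icLASER bins not yet given were those of ATF5, at the end of the coding sequence (0.272 and 0.126), DDIT3, in the coding sequence (0.399 and 0.298), and HSPA5, in the 3′ UTR (0.217 and 0).

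**Figure D2:**
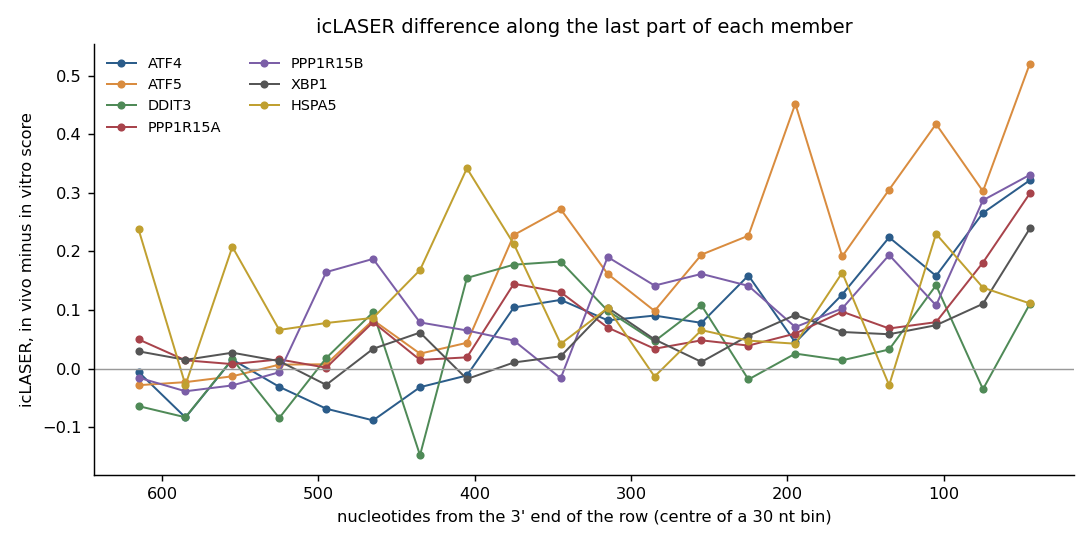
Difference of the icLASER score, in vivo minus in vitro, in bins of 30 nt (vertical axis) against the distance of the bin's centre from the 3′ end of each row, for 7 mRNAs. The points nearest to the 3′ end, 45 nt from it, all lie above 0, from 0.110 in DDIT3 to 0.520 in ATF5.

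At the 3′ end the icLASER score was higher in vivo in all 7 members over the last 51 scored nt, against 89.4% of 4452 genes. The icSHAPE score was higher in 4 of 7, against 62.3% of 3798. Both counts were the same after division by the profile means, for which no share over genes was computed. ATF5 had 0.0516 in vitro and 0.490 in vivo with icLASER, a difference above 98.5% of genes. PPP1R15B had 0.109 and 0.448, ATF4 0.0971 and 0.408, and PPP1R15A 0.0972 and 0.358. XBP1, at 0.0706 and 0.241, HSPA5, at 0.0896 and 0.222, and DDIT3, at 0.126 and 0.182, lay closer to the median difference over genes, 0.109. Short 3′ UTRs consist largely of this stretch: over the 53 scored nt of the ATF4 3′ UTR icLASER gave 0.0935 ± 0.212 and 0.402 ± 0.329, higher in vivo at 51 nt and lower at 0, and over the 54 nt of PPP1R15A 0.102 ± 0.179 and 0.358 ± 0.319. In the other 2 ATF4 rows the difference was 0.337 and 0.314, beside 0.308. The last 30 nt of each row are unscored, so nothing is known of the junction with the poly(A) tail.

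Position by position, the conditions were most alike in ATF4, with a Pearson correlation across 1383 nt of 0.646 for icSHAPE and 0.762 for icLASER, against medians over genes of 0.50 and 0.571. They were least alike in PPP1R15B (0.334 and 0.370 over 5191 nt), followed for icSHAPE by XBP1 (0.396) and for icLASER by ATF5 (0.469). Between the reagents in vivo the correlation ran from 0.159 in PPP1R15B to 0.440 in PPP1R15A, around a gene median of 0.374. Nucleotides of one row share libraries, depth and scaling.

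The 4 lists of related genes read beside the members were compared over whole rows. Of 19 genes for stress kinases, sensors and the eIF2 machinery, 9 had both icSHAPE profiles and all 9 were higher in vivo (median 0.0433), but 6 of 9 after each profile was divided by its own mean. With icLASER 3 of 10 were (median -0.00304), from -0.00884 in EIF2B3 to 0.0296 in EIF2S3, the gamma subunit of eIF2. Of 23 known targets of ATF4, 17 of 17 were higher in vivo with icSHAPE (median 0.0230) but 6 of 17 after that division, the highest being GARS1, glycyl-tRNA synthetase, at 0.0822 in vitro and 0.141 in vivo. With icLASER 14 of 19 were higher (median 0.00849; 15 after division), from SLC7A11, a cystine transporter, at 0.124 and 0.0858, to PHGDH, of serine synthesis, at 0.151 and 0.196.

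Among 24 genes of ER folding and degradation, 16 of 16 were higher in vivo with icSHAPE (median 0.0206), but 4 of 16 after division, and 8 of 17 with icLASER (median -0.00153). SERP1 had the lowest icSHAPE difference of that list, 0.00349, and the highest icLASER difference, 0.0395, and DERL1 had the lowest with icLASER, -0.0390. Of 12 other mRNAs known for uORFs, 5 of 5 were higher with icSHAPE (median 0.0340), 4 of them after division, and 2 of 8 with icLASER (median -0.00854). SLC7A1, an amino acid transporter, was lowest with icLASER, at 0.159 in vitro and 0.0889 in vivo, and MDM2, the ubiquitin ligase of p53, highest, at 0.135 and 0.181 over 370 nt. The shares for all genes, 89.8% with icSHAPE and 65.0% with icLASER, stand beside each of these counts. After division the shares were 50.6% with icSHAPE and 67.5% with icLASER.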

How the data were processed

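K562 RNA was probed with NAI-N3 (icSHAPE) or NAz-N3 (icLASER), in cells or after refolding. The authors trimmed reads with Trimmomatic, aligned them with Bowtie2 to the Ensembl release 88 transcriptome (GRCh38) and ran the icSHAPE pipeline. The deposited files hold, for each transcript, an RPKM, normalised by the authors for length and library size, and for each nucleotide an enrichment score relative to the control library, scaled by the authors within each transcript to between 0 and 1. Tool versions are not given in the sources used here. Replicates were pooled by the authors, read counts are not in these files, and the depth behind a score is unknown. The first 6 and last 30 nt of a row, and scattered others, are unscored, and 16 values outside 0 to 1 were left out.

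Groups were taken from the labels. Gene names, sequences and reading frames came from GENCODE release 44, which held 20111 of the 20512 rows. Of the members' main rows, that of XBP1 had the GENCODE length. The others were placed on a sequence of the same gene at the offset where G (icLASER) and, 1 nt downstream, A and U (icSHAPE) had the highest scores against other bases, which does not use the difference between conditions. The contrast at the chosen offset was 3.89 to 7.83 times that at the next best one. The best offset was the chosen one in 81.3% to 100% of windows of 80 nt. DNAJB9 could not be placed (1.29 times). The first 62 nt of the ATF5 row, 29 of PPP1R15A and 3 of DDIT3 have no sequence there, and uORFs starting in them were not seen. A uORF was an AUG in the 5′ UTR with an in-frame stop codon, taking the first AUG per stop, with at least 50% of positions scored. Whole rows needed 100 positions and regions 30. Regions and uORFs of other genes were read from rows of equal length.

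Values are means over positions scored in both conditions and their difference, in vivo minus in vitro, computed with Python 3.11.15 and numpy 2.4.6 and drawn with matplotlib 3.10.9. Placement, differences and uORF finding were tested on simulated data. No test between conditions was possible with 1 profile per group. The members, gene lists and elements were chosen with earlier results of these data known. The text names all members, all their uORFs, the hairpin residues and, per member, the bins of largest difference, and of the other lists the lowest and highest gene. Codons, rows and positions described singly were chosen after their values were seen. Alternatives tried were scores moved by 1 nt, medians, the share of positions at or above 0.5, A and G alone, division by each profile's mean, other rows, and leaving out positions at 0 in both conditions.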

Additional observations from a re-analysis of the deposited data

Results flagged for a closer look

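PPP1R15B was flagged because its whole-row differences had opposite signs with the reagents. Its icSHAPE mean was 0.0247 higher in vivo than in vitro, and its icLASER difference was -0.0213, over the same 5191 nt. The other 6 mRNAs had positive differences with both. This holds on the deposited scale only: after each profile was divided by its own mean, PPP1R15B had 1.06 in vitro and 1.05 in vivo with icSHAPE and 1.17 and 1.03 with icLASER, lower in vivo with both, and 4 of 7 mRNAs were lower in vivo with icSHAPE. The difference between the reagents was not tested, since each is 1 pooled profile, and they measure different properties. PPP1R15B also had the lowest mean RPKM of the members, 7.22, and 52.7% to 69.4% of its icSHAPE scores and 49.4% to 64.0% of its icLASER scores were 0. Their part in the result was not tested.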

How the results depend on the processing

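Scores are 1 pooled profile per reagent and condition, the variation between libraries and the counting error are not known, and rows of one gene overlap in sequence and are not independent. No paired analysis was possible because the replicates were pooled before deposit, and leaving out each replicate in turn was not run for the same reason. Moving scores by 1 nt was tried on uORFs and hairpins only. Of 77 alternative values, 55 did not change side and stayed within a set tolerance of the main value. Some of these were 0, as were the icLASER member, uORF and hairpin differences with the median over positions. The tolerance was wide beside some main values: 0.0733 beside 0.0736 for icSHAPE uORFs, and 0.0800 beside -0.0427 for icLASER uORFs. For the icLASER median over members it was 0.0191 beside 0.00624.

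With each profile divided by its own mean (on the common scale of both), members higher in vivo with icSHAPE went from 7 to 3, their median difference from 0.0247 to -0.00212, and uORFs lower in vivo with icSHAPE from 1 to 3. With the median over positions, members higher in vivo went to 0 with icSHAPE (median difference 0) and to 0 with icLASER, uORFs lower with icLASER from 8 to 4, and the icSHAPE hairpin difference from 0.0895 to 0, since most positions differ by 0 or little. With the share of positions at or above 0.5, members higher with icLASER went from 6 to 3 (median difference -0.00135), uORFs lower with icSHAPE to 0, and the icSHAPE hairpin difference to 0.025. With A and G only, members higher with icLASER went to 2 (median difference -0.00526), uORFs lower with icSHAPE to 0, and the hairpin differences to 0.0388 and -0.0482. In the second row of each gene, uORFs lower with icLASER were 4 of the 4 measured there, and the icSHAPE hairpin difference was 0.040. Without positions at 0 in both conditions that difference was 0.188. In the XBP1 row ENST00000405219, chosen after seeing the data, the hairpin differences were 0.00305 and -0.0792. The cause of these changes was not tested.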
